A study of Rattus norvegicus with 2 samples.

Results

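The genes described here are the 6 rat genes that encode platelet-derived growth factor (PDGF) ligands and their receptors. The ligand genes were Pdgfa, Pdgfb, Pdgfc and Pdgfd, and the receptor genes were Pdgfra and Pdgfrb. They were chosen by symbol from the 32623 genes of the deposited count table, in which all 6 were listed, under the identifiers ENSRNOG00000001312, ENSRNOG00000017197, ENSRNOG00000010695, ENSRNOG00000029148, ENSRNOG00000002244 and ENSRNOG00000018461, in that order.

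The data were single-cell RNA counts of carotid arteries from male SD (Sprague-Dawley) rats, labelled as 12 weeks old. The control group was 1 library of untreated left carotid arteries, and the case group was 1 library of right carotid arteries that had been denuded with a balloon 28 days earlier. Each library pooled the arteries of the same 2 rats. Balloon injury strips the inner lining of the artery, so that a new inner layer forms in the weeks that follow. With 1 library per group there was no replicate, and the effects of injury, of the side of the neck and of the library cannot be told apart. No test between groups was therefore possible. The 95% intervals given below are exact Poisson intervals for summed counts, exact binomial (Clopper-Pearson) intervals for shares and exact conditional intervals for ratios, and they cover counting error only.

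PDGF ligands are secreted as dimers that bind receptor tyrosine kinases on nearby cells. PDGF-A and PDGF-B are released in active form, while PDGF-C and PDGF-D carry an extra domain that a protease must cut off first. In vessel walls, endothelial PDGF-B acting on PDGF receptor beta is known for recruiting mural cells, and PDGF from platelets and vessel wall cells is a classical stimulus of smooth muscle migration and growth after injury. PDGF receptor alpha is a common marker of fibroblasts.

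The control library held 3321 barcodes and 24968329 UMIs (unique molecular identifiers, each standing for 1 captured RNA molecule), and the case library held 5656 barcodes and 28232614 UMIs. After filtering, 2229 control cells (67.1% of barcodes) and 4890 case cells (86.5%) were in use, with a median of 10919 and 5173.5 UMIs per cell. Since the libraries differed in depth, levels were put on a common scale, CPM, which sets a gene's UMIs against all UMIs summed over the cells of a class (counts per 1000000). CPM values are not scaled to gene length, so that levels were compared between classes and groups for 1 gene at a time. The libraries shared 21 barcode sequences, of which 5 belonged to cells in use in both.

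Cells were put in a class when their UMIs of fixed marker genes passed a threshold for that class alone, and neither receptor gene was among these markers. VSMC-like cells (vascular smooth muscle cells) numbered 1196 among control and 2664 among case cells. Fibroblast-like cells numbered 713 and 1462. Endothelial-like cells numbered 55 and 240. Macrophage-like cells numbered 38 and 104. Cells past both the VSMC and the fibroblast threshold, 129 control and 126 case cells, were in none of these classes. The summed CPM of the 8 endothelial markers was 2880 in control and 3100 in case endothelial-like cells and lay between 2.30 and 38.4 CPM in the other 3 classes. The 6 VSMC markers summed to 25000 and 19900 CPM in VSMC-like cells and to 1040 and 763 CPM in endothelial-like cells. The 7 fibroblast markers summed to 23100 and 18500 CPM in fibroblast-like cells and to 610 and 538 CPM in VSMC-like cells. Joint clustering placed 70.4% of control VSMC-like cells in cluster 4, whereas 48.0% and 38.8% of case VSMC-like cells lay in clusters 1 and 3. Of the fibroblast-like cells, 82.0% of the control group lay in cluster 2, against 45.9% in cluster 2 and 44.0% in cluster 5 in the case group.

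The 3 ligand genes with at least 10 CPM in endothelial-like cells of both groups, Pdgfa, Pdgfb and Pdgfd, are shown with their promoters, because their levels went different ways among endothelial cells (below). The sequences are from RefSeq in the GRCr8 build and run 5′ to 3′ on the gene's strand. They span 250 bases before to 50 bases after the transcription start listed for the promoter. Capitals mark the GC box GGGCGG and the ETS-family site GGAAGT, each searched on both strands. Of all 33469 rat promoters of this length, 33.1% held the GC box and 22.6% held the ETS-family letters, and no overlap between the marked motifs occurred in these 3 promoters.
Pdgfa promoter, chr12:20759116-20759415, plus strand: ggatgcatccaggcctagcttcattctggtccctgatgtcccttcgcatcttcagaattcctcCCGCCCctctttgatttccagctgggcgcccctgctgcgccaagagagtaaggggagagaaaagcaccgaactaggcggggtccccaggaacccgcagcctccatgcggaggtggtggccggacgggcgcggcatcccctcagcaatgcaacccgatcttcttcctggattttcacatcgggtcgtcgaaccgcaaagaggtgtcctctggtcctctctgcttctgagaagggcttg
Pdgfb promoter, chr7:113438294-113438593, minus strand: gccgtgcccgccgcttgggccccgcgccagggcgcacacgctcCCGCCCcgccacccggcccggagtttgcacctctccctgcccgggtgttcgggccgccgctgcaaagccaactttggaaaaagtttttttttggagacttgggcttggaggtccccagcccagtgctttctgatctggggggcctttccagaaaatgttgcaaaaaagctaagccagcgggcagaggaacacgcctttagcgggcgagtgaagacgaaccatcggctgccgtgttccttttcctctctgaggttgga
Pdgfd promoter, chr8:11773258-11773557, plus strand: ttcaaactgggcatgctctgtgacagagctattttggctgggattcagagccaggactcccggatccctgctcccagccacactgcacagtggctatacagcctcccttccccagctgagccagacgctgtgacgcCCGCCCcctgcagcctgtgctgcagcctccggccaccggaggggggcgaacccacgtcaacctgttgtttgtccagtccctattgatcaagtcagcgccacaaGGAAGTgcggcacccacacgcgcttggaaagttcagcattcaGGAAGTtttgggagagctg
Each of the 3 promoters held 1 GC box, and the Pdgfd promoter also held 2 copies of the ETS-family letters. The windows listed for Pdgfc (chr2:168614918-168615217, plus strand) and Pdgfra (chr14:33408467-33408766, minus strand) held neither motif. None of the 5 windows held the TATA box letters TATAAA, which 14.2% of all promoters held. The RefSeq gene of Pdgfc starts at 168613409, so its whole window lay inside the gene and may not describe its promoter. The RefSeq genes of Pdgfd and Pdgfra begin at 11773335 and 33408604, upstream of the start used but within the window. All marked motifs of the Pdgfd window lay inside that gene, and the last ETS-family copy lay past the start used. These motifs may therefore not describe the Pdgfd promoter. The GC content of the windows was 60.0% for Pdgfa, 62.0% for Pdgfb, 58.0% for Pdgfc, 60.0% for Pdgfd and 48.0% for Pdgfra. The median over all promoters was 51.7%. A match of letters is a description and does not show binding.

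Pdgfa, which encodes a ligand of PDGF receptor alpha, was read in VSMC-like and endothelial-like cells. In control VSMC-like cells its level was 93.9 CPM (1248 UMIs), and in control fibroblast-like cells it was 20.7 CPM (171 UMIs). Control endothelial-like cells had 186 CPM (79 UMIs) and macrophage-like cells 15.2 CPM (5 UMIs). In case cells the same levels were 78.5 CPM (1184 UMIs), 21.1 CPM (169 UMIs), 135 CPM (147 UMIs) and 40.2 CPM (22 UMIs). Among these 4 classes endothelial-like cells were thus highest in both groups and VSMC-like cells were next. The VSMC-like level was 4.54-fold the fibroblast-like level in the control group (interval 3.87 to 5.36) and 3.72-fold in the case group (3.17 to 4.40). VSMC-like cells held 77.7% of all Pdgfa UMIs in the control library and 69.1% in the case library, beside 56.1% and 55.9% of the UMIs of all genes.

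Pdgfb encodes the ligand that signals from endothelium to mural cells. Its level in endothelial-like cells was 40.0 CPM in the control group (17 UMIs, interval 23.3 to 64.1) and 67.8 CPM in the case group (74 UMIs, 53.2 to 85.1). VSMC-like cells held 5 UMIs in each group, or 0.376 and 0.331 CPM. Fibroblast-like cells held 0 UMIs in the control group, which allows up to 0.363 CPM, and 6 UMIs in the case group, 3 of them in 1 cell. Endothelial-like cells made up 2.47% and 4.91% of the cells in use and held 60.7% and 77.9% of all Pdgfb UMIs. Cells past both the VSMC and the fibroblast threshold held 5 Pdgfb UMIs in the control group (17.9%, 6.21 CPM) and 0 in the case group. In the case group the VSMC-like level was 0.00489 of the endothelial-like level (interval 0.00154 to 0.0119). Over all cells in use, which hold more endothelial-like cells in the case library, Pdgfb was 1.18 CPM in the control group and 3.52 CPM in the case group.

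Pdgfc encodes a ligand that is activated by tissue plasminogen activator. It was sparse, with 79 UMIs in the control cells in use and 95 in the case cells. Fibroblast-like cells held 51.9% and 53.7% of them, at 4.96 CPM and 6.36 CPM. The macrophage-like level was 27.4 CPM in the control group (9 UMIs, 4 of them in 1 cell) and 12.8 CPM in the case group (7 UMIs). VSMC-like cells were lower than fibroblast-like cells in both groups, at 1.81 and 1.52 CPM, or 0.364-fold (interval 0.211 to 0.618) and 0.240-fold (0.140 to 0.399).

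Pdgfd encodes a ligand of PDGF receptor beta that urokinase, encoded by Plau, can activate. Of the 4 classes its level was highest in endothelial-like cells, at 44.7 CPM in the control group (19 UMIs, interval 26.9 to 69.8) and 25.6 CPM in the case group (28 UMIs, 17.0 to 37.1). Fibroblast-like cells had 3.63 CPM (30 UMIs) and 8.98 CPM (72 UMIs). VSMC-like cells had 2.79 CPM (37 UMIs) and 1.79 CPM (27 UMIs). Macrophage-like cells held 0 UMIs in both groups, which allows up to 9.12 and 5.48 CPM. In the control group the fibroblast-like and VSMC-like levels did not differ beyond counting error (0.768-fold, interval 0.462 to 1.29), and in the case group VSMC-like cells had 0.199-fold the fibroblast-like level (0.123 to 0.314).

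Pdgfra, the alpha receptor, was read in fibroblast-like cells, at 91.9 CPM in the control group (760 UMIs, interval 85.5 to 98.7) and 102 CPM in the case group (819 UMIs, 95.2 to 109). These cells held 91.9% and 90.0% of its UMIs. VSMC-like cells had 1.20 CPM (16 UMIs) and 1.86 CPM (28 UMIs), or 0.0131-fold (interval 0.00745 to 0.0214) and 0.0182-fold (0.0120 to 0.0265) the fibroblast-like level. No Pdgfra UMI was counted in 55 control and 240 case endothelial-like cells, which allows a share of cells with a UMI of up to 5.45% and 1.25%, nor in the 38 and 104 macrophage-like cells.

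Pdgfrb, the beta receptor, had the most UMIs of the 6 genes, 6211 in control cells and 8332 in case cells. The VSMC-like level was 328 CPM in the control group (4363 UMIs, interval 319 to 338) and 402 CPM in the case group (6073 UMIs, 392 to 413). The fibroblast-like level was 178 CPM (1468 UMIs) and 192 CPM (1538 UMIs). VSMC-like cells were 1.85-fold (interval 1.74 to 1.96) and 2.10-fold (1.98 to 2.22) the fibroblast-like level. Endothelial-like cells had 28.2 CPM (12 UMIs) and 29.3 CPM (32 UMIs), beside 1040 and 763 CPM of VSMC markers in the same cells. The part of RNA from other cells in this signal was not tested. The 38 control macrophage-like cells held no Pdgfrb UMI, and the 104 case cells held 13, of which 6 were in 1 cell. The number of Pdgfrb UMIs for each Pdgfra UMI was 1.93 (interval 1.77 to 2.11) and 1.88 (1.72 to 2.05) in fibroblast-like cells and 273 (168 to 478) and 217 (150 to 327) in VSMC-like cells. This ratio of counts is given to compare classes, not to compare the levels of the genes.

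**Figure D1:**
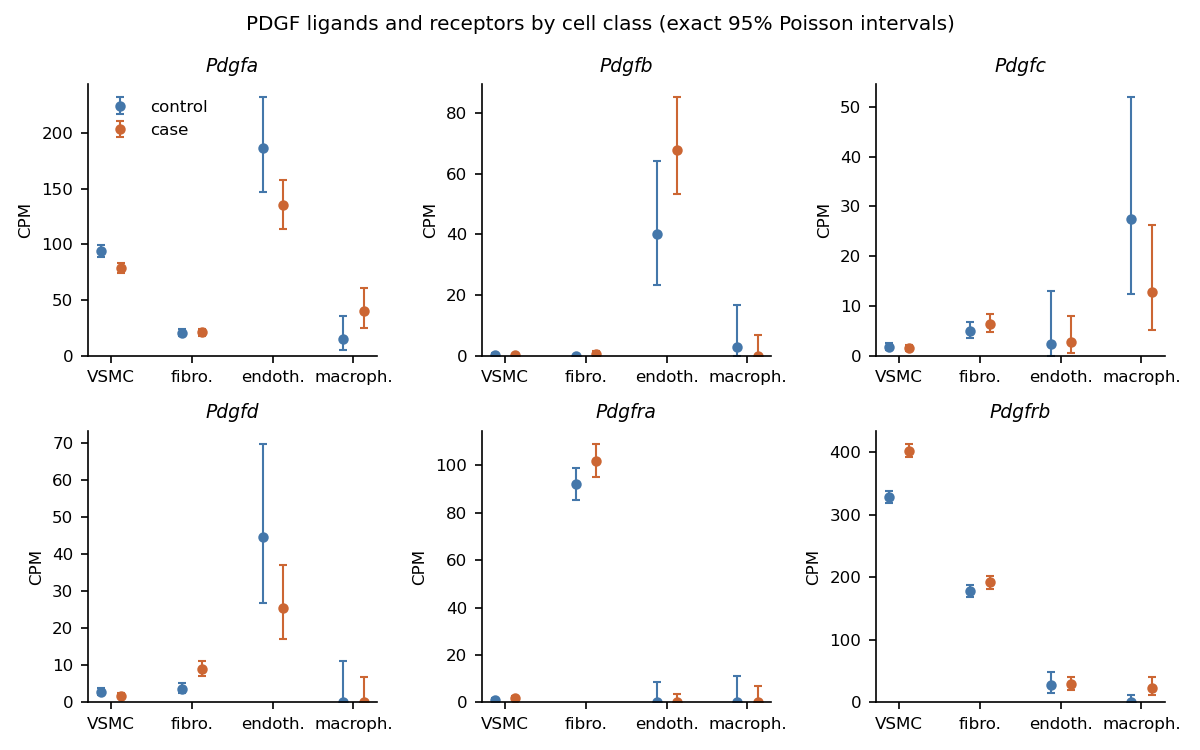
Level of each gene (CPM, y axis) in VSMC-like, fibroblast-like, endothelial-like and macrophage-like cells (x axis). Points are summed counts of 1 library (control, blue; case, orange) with exact 95% Poisson intervals. Pdgfb is near 0 outside endothelial-like cells, Pdgfra near 0 outside fibroblast-like cells, and Pdgfrb is highest in VSMC-like cells at 328 and 402 CPM.

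**Figure D2:**
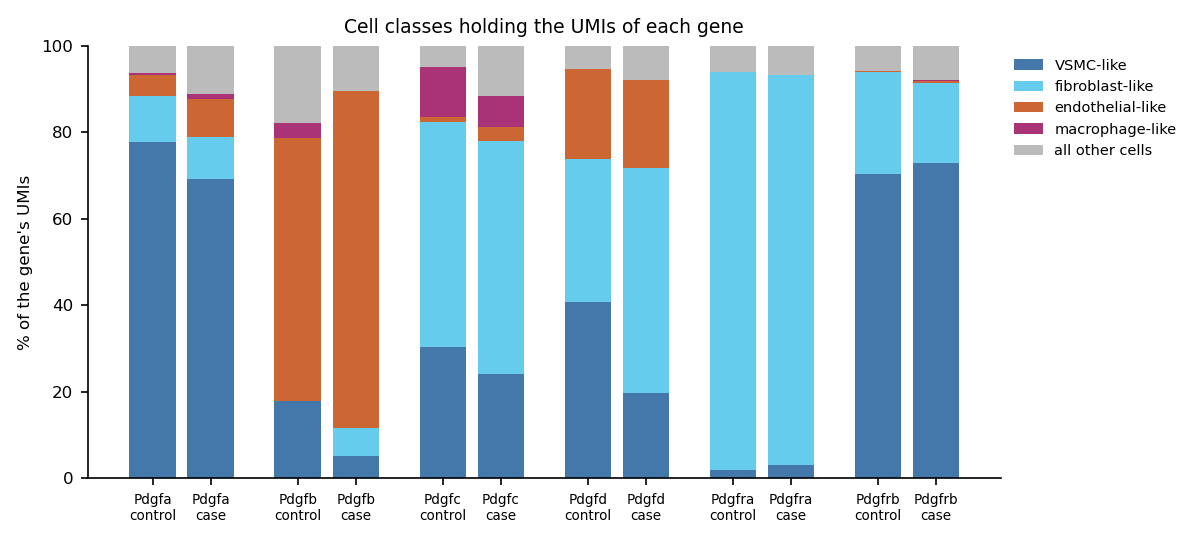
Share of the UMIs of each gene (%, y axis) that lay in each cell class, 1 bar per gene and library, over the cells in use. VSMC-like cells held 77.7% and 69.1% of Pdgfa UMIs, and fibroblast-like cells held 91.9% and 90.0% of Pdgfra UMIs.

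Shares of cells with a UMI were compared after each cell had been thinned to 2000 UMIs, since deeper cells show more genes. After thinning, Pdgfrb had a UMI in 45.4% of control VSMC-like cells (interval 42.3 to 48.4) and 49.1% of case VSMC-like cells (47.2 to 51.1), with 138 and 113 shallower cells left out. Thinned to 1000 UMIs instead, with no cell left out, the shares were 29.2% (26.6 to 31.8) and 31.0% (29.2 to 32.8). Without thinning they were 87.0% and 78.8%. The order of the groups thus differed with and without thinning, but the thinned intervals of the groups overlapped at both depths. In macrophage-like cells the thinned Pdgfrb share was 0 of 38 cells in the control group, which allows 7.89%, and 6 of 100 cells in the case group (2.23 to 12.6%). Pdgfra had a UMI in 17.1% of control fibroblast-like cells (14.4 to 20.1) and 16.7% of case fibroblast-like cells (14.7 to 18.7) after thinning, and in 50.8% and 35.3% without it. In endothelial-like cells the thinned share of Pdgfra was 0, allowing 5.45% and 1.33%. Pdgfb had a UMI in 7.27% (2.02 to 17.6) and 8.41% (5.14 to 12.8) of thinned endothelial-like cells and in 0 of 1058 and 1 of 2551 thinned VSMC-like cells. In thinned fibroblast-like cells, Pdgfrb was counted in 28.6% of control cells with a Pdgfra UMI and in 24.7% of those without, and in 36.1% and 26.7% in the case group. Thinned cells with UMIs of both receptors numbered 34 of 695 and 84 of 1398.

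The study compared injured with uninjured arteries, and the same comparison was made for each gene within a class. The largest difference with an interval that left out no change was that of Pdgfd in fibroblast-like cells, at 3.63 CPM in the control group and 8.98 CPM in the case group (log2 of case over control 1.31, interval 0.67 to 1.97, 2.47-fold). Pdgfrb was 1.23-fold higher in case VSMC-like cells (log2 0.29, interval 0.24 to 0.35), 328 against 402 CPM, but the direction turned with each cell given the same weight (-0.03) and in cells of 2000 to 4000 (-0.75) and 4000 to 8000 UMIs (-0.19). Pdgfa was lower in case VSMC-like cells (log2 -0.26, interval -0.38 to -0.14) and in case endothelial-like cells (log2 -0.47, interval -0.87 to -0.05). The endothelial-like interval included no change with edgeR's TMM scaling (-0.20, -0.60 to 0.22) and with median-of-ratios scaling (-0.15, -0.55 to 0.26), and the VSMC-like interval did so with the latter (-0.09, -0.21 to 0.02). It also included no change within cluster 1 (-0.16, -0.57 to 0.27) and cluster 3 (0.37, -0.26 to 1.08). The same held within cluster 4 (-0.11, -0.38 to 0.15) and cluster 6 (-0.13, -0.93 to 0.63). Pdgfra and Pdgfrb in fibroblast-like cells differed by log2 0.15 (0.01 to 0.30) and 0.11 (0.01 to 0.22), and these directions also turned in ranges of depth (below). The interval of the other ratios with at least 20 UMIs included no change. Among these, Pdgfb in endothelial-like cells was 1.69-fold (interval 0.990 to 3.06), Pdgfd in endothelial-like cells 0.573-fold (0.309 to 1.09) and Pdgfa in macrophage-like cells 2.64-fold (0.977 to 8.94). For Pdgfb this depended on the scaling, since the interval left out no change with TMM (log2 1.03, 0.26 to 1.88) and median-of-ratios scaling (1.08, 0.30 to 1.93). With each cell given the same weight, the macrophage-like log2 ratio of Pdgfa was 0.40 in place of 1.40.

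These ratios were set beside all genes whose mean over the 2 groups reached 10 CPM, taking a fold of 1.5 as the line. In VSMC-like cells 2 of the 6 genes reached that mean, Pdgfa and Pdgfrb, and neither passed the fold, where 5.40% of 6592 genes were higher and 14.8% lower in the case group. Among fibroblast-like cells Pdgfa, Pdgfra and Pdgfrb reached the mean and none passed the fold, beside 6.42% of genes higher and 14.0% lower. Pdgfd was under the mean there and was not counted. In endothelial-like cells 4 of the genes reached the mean. Pdgfb passed as higher and Pdgfd as lower, beside 18.2% of genes higher and 32.4% lower, so that 1 of 4 in each direction was near the background. Pdgfd no longer passed the fold with TMM (log2 -0.53) or median-of-ratios scaling (-0.49). In macrophage-like cells Pdgfa and Pdgfrb passed as higher and Pdgfc as lower, on 5 and 22 UMIs (control and case) for Pdgfa, 0 and 13 for Pdgfrb and 9 and 7 for Pdgfc, beside 24.7% higher and 17.7% lower, and Pdgfa did not pass with each cell given the same weight. The median log2 ratio over all genes counted here was -0.13 for VSMC-like, -0.09 for fibroblast-like, -0.22 for endothelial-like and 0.07 for macrophage-like cells, and the ratios above stand against those medians. With TMM scaling, which adds 0.13 to log2 ratios in VSMC-like cells, the Pdgfa ratio there was -0.13 and the Pdgfrb ratio 0.42.

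**Figure D3:**
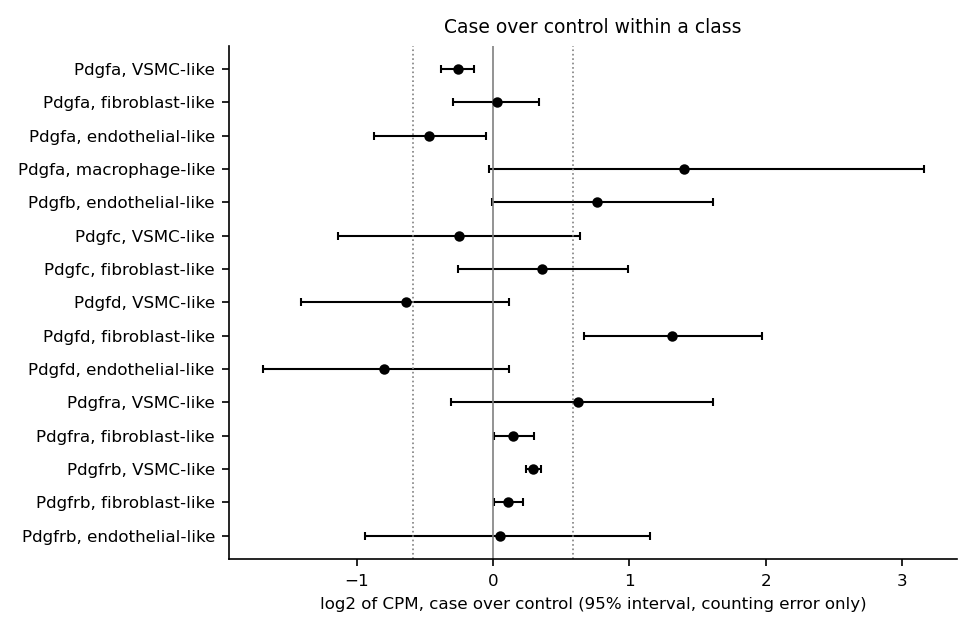
Log2 of CPM in the case group over the control group (x axis) for each gene and class with at least 20 UMIs over both libraries (y axis), with exact 95% intervals that cover counting error only. Dotted lines mark a fold of 1.5 in each direction. Pdgfd in fibroblast-like cells, at 1.31, is the only point whose whole interval lies beyond a dotted line.

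Levels of the ligand genes were also read within kinds of endothelial-like cell. The effect of their mix on the class ratios was not tested. Plvap encodes a protein of endothelial diaphragms and Emcn encodes endomucin, and both are typical of capillary and venous endothelium. Cells with a UMI of either gene made up 12 of the 55 control and 107 of the 240 case endothelial-like cells, and Emcn was also 1 of the 8 markers of the class. In these cells Pdgfb was 103 CPM in the control group (9 UMIs) and 110 CPM in the case group (51 UMIs). In the remaining endothelial-like cells it was 23.7 CPM (8 UMIs) and 36.6 CPM (23 UMIs). Cells with Plvap or Emcn thus had 4.35-fold (interval 1.49 to 13.0) and 3.01-fold (1.80 to 5.15) the Pdgfb level of those without.

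Pdgfa had the same order. It was 504 CPM in control (44 UMIs, 12 of them in 1 cell) and 186 CPM in case cells with Plvap or Emcn (86 UMIs), and 104 CPM (35 UMIs) and 97.1 CPM (61 UMIs) in cells without, which is 4.86-fold (interval 3.05 to 7.81) and 1.91-fold (1.36 to 2.70). Pdgfd had the opposite order in the case group, with 4.31 CPM in cells with Plvap or Emcn (2 UMIs) and 41.4 CPM in cells without (26 UMIs), or 0.104-fold (interval 0.012 to 0.416). In the control group the Pdgfd levels were 34.4 CPM (3 UMIs) and 47.4 CPM (16 UMIs). Pdgfb and Pdgfd RNA were therefore highest in different endothelial-like cells of the injured arteries.

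Among endothelial-like cells without Plvap and Emcn, the log2 ratio of case over control was -0.10 for Pdgfa, 0.63 for Pdgfb and -0.20 for Pdgfd, and each interval included no change. The whole class had -0.47 for Pdgfa and -0.80 for Pdgfd. Among cells with Plvap or Emcn, the ratio was -1.44 for Pdgfa, on 12 control cells, and -2.99 for Pdgfd, on 3 and 2 UMIs with an interval that included no change (-6.58 to 0.13). The microvascular mural gene Rgs5 stood at 268 CPM in control and 73.3 CPM in case endothelial-like cells, while the other 4 genes of that list, Abcc9, Kcnj8, Higd1b and Vtn, were at 0 to 7.06 CPM there. Higd1b and Vtn were at 0 to 5.49 CPM in VSMC-like and fibroblast-like cells too. Over all 5 genes the list summed to 275 and 80.6 CPM in endothelial-like cells. It summed to 221 and 279 CPM in VSMC-like cells and to 255 and 234 CPM in fibroblast-like cells. In VSMC-like cells Rgs5 was at 0.903 and 1.86 CPM, Abcc9 at 170 and 222 CPM and Kcnj8 at 49.7 and 55.5 CPM. The part of adhering mural cells in the Pdgfa values was not tested.

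Fibroblast-like cells were divided by 3 genes with wide differences among them. Gfpt2, which encodes the entry enzyme of the hexosamine pathway, was high in 78 control and 210 case cells. Periostin (Postn), a matrix protein of activated fibroblasts, marked 6 and 110 cells that were not high in Gfpt2. Pi16, a marker of adventitial fibroblasts, marked 338 and 290 cells under both of these thresholds. The other 291 and 852 cells passed none of the thresholds.

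Pdgfc was concentrated in the cells high in Gfpt2, at 25.1 CPM in the control group (28 UMIs) and 25.8 CPM in the case group (38 UMIs), against 1.30 CPM (5 UMIs) and 2.50 CPM (4 UMIs) in Pi16-positive cells. This was 19.3-fold (interval 7.35 to 64.0) and 10.3-fold (3.71 to 39.7). Both receptors went the other way. Pdgfra was 43.0 and 53.5 CPM in cells high in Gfpt2 and 101 and 119 CPM in Pi16-positive cells, or 0.425-fold (interval 0.308 to 0.575) and 0.448-fold (0.341 to 0.586). Pdgfrb was 73.4 and 97.6 CPM against 181 and 228 CPM, or 0.406-fold (0.319 to 0.511) and 0.428-fold (0.350 to 0.520). The 2 libraries thus gave the same order for these 3 genes. Cells high in Gfpt2 were deeper than Pi16-positive cells, at a median of 14765.5 against 10759 UMIs in the control group. In the case group the medians were 6644.5 and 5145 UMIs. The part of depth in the receptor ratios was not tested.

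Pdgfd was highest in Postn-positive cells. The 110 case cells held 24 UMIs in 19 cells, or 33.7 CPM (interval 21.6 to 50.1), which was 18.0-fold (5.45 to 93.2) the level of case Pi16-positive cells at 1.88 CPM. The 6 control Postn-positive cells held 0 UMIs, which allows up to 63.2 CPM, so that no difference between the groups was detectable within these cells. Without these Postn-positive cells, Pdgfd in fibroblast-like cells was 3.65 CPM in the control group (30 UMIs) and 6.57 CPM in the case group (48 UMIs). This was a log2 ratio of 0.85 (interval 0.16 to 1.56) in place of 1.31. Any cell past the Postn threshold that was also high in Gfpt2 was kept here. In cells high in Gfpt2 Pdgfd was 8.95 and 9.49 CPM (log2 0.08, interval -1.19 to 1.42). In cells passing no threshold it was 5.22 and 7.32 CPM (0.49, -0.41 to 1.43). Pi16-positive cells had 0.78 and 1.88 CPM, on 3 UMIs in each group (1.27, -1.63 to 4.17). Each of these intervals included no change. Without the Postn-positive cells, Pi16-positive cells were 338 of 707 control and 290 of 1352 case cells. The effect of this mix on the ratio of 0.85 was not tested.

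**Figure D4:**
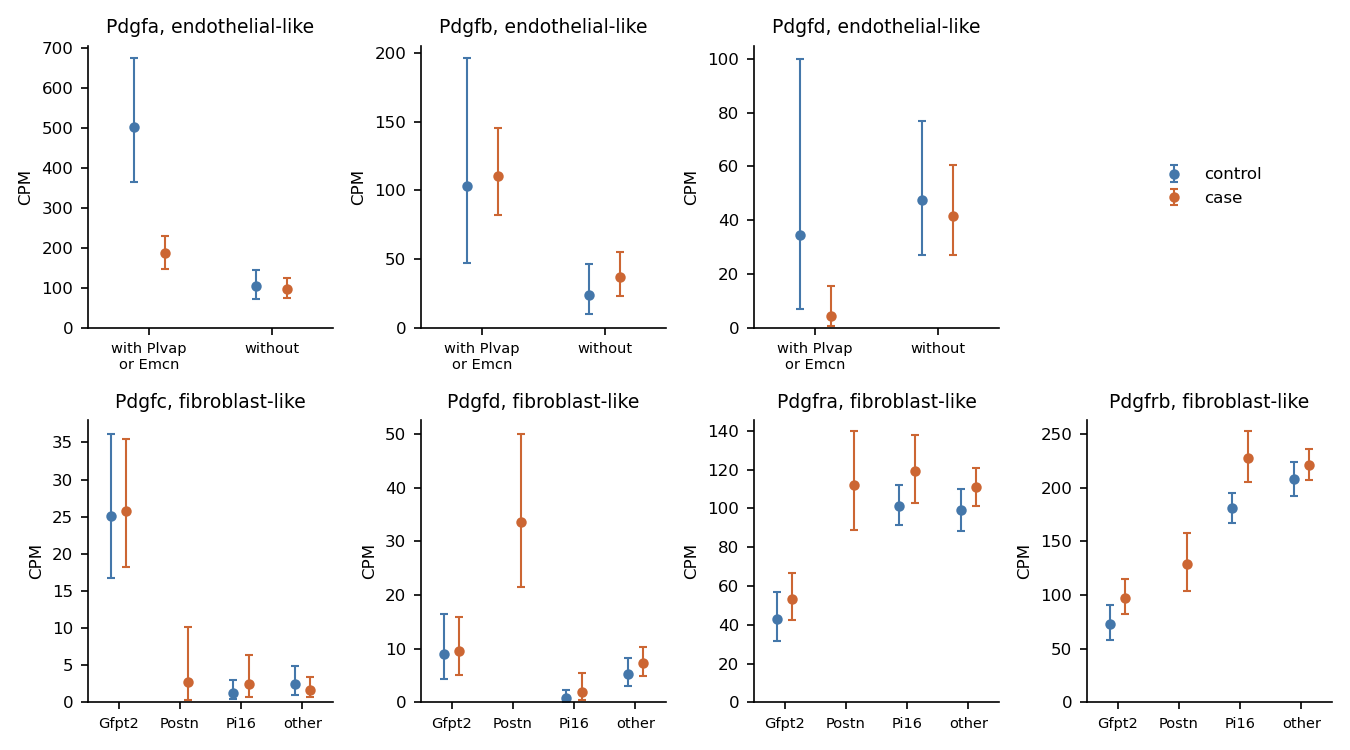
Levels (CPM, y axis) of ligand and receptor genes among endothelial-like cells with or without a UMI of Plvap or Emcn (top) and among fibroblast-like cells high in Gfpt2, positive for Postn or Pi16, or passing none of these (bottom), control in blue and case in orange with exact 95% Poisson intervals. The 6 control Postn-positive cells are not drawn. Pdgfc stands at 25.1 and 25.8 CPM in cells high in Gfpt2, and Pdgfd at 33.7 CPM in case Postn-positive cells.

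Divided by Notch1 and Spp1, VSMC-like cells differed less in Pdgfrb than the fibroblast-like subsets above. Cells positive for Notch1, which encodes a receptor of cell contact signalling, had 333 and 417 CPM of Pdgfrb. VSMC-like cells under the thresholds of both genes, which may still hold some of their UMIs, had 319 and 396 CPM. Cells high in Spp1, which encodes osteopontin, had 363 and 429 CPM of Pdgfrb. This was 1.14-fold (interval 1.05 to 1.23) and 1.09-fold (1.01 to 1.17) the level of cells under both thresholds. Pdgfa was lower in control Notch1-positive cells at 60.3 CPM than in the remaining cells at 98.4 CPM (0.612-fold, interval 0.478 to 0.774). The same levels in the case group were 81.4 and 76.8 CPM, and no difference beyond counting error was found (1.06-fold, 0.866 to 1.29). Case over control, Pdgfa was thus higher in Notch1-positive cells (log2 0.43, interval 0.00 to 0.87). It was lower in cells under both thresholds (-0.36, -0.49 to -0.22), and in cells high in Spp1 the interval included no change (-0.13, -0.42 to 0.16).

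The Pdgfrb level of VSMC-like cells moved with the depth of the cell, and so did the mitochondrial share of UMIs, a sign of RNA quality. In the control group it was 980 CPM in cells of 1000 to 2000 UMIs, 787 CPM at 2000 to 4000, 447 CPM at 4000 to 8000, 308 CPM at 8000 to 16000 and 291 CPM at 16000 to 40000 UMIs. In the case group it was 804, 466, 393, 381 and 373 CPM in the same ranges, the last on 10 cells. The median mitochondrial share in these ranges was 8.53%, 11.9%, 9.39%, 5.53% and 5.20% in the control group. In the case group it was 14.5%, 7.08%, 6.20%, 5.97% and 5.80%. Its part in the Pdgfrb values of these ranges was not tested. The log2 ratio of case over control was -0.75 (interval -0.99 to -0.51) at 2000 to 4000 UMIs, -0.19 (-0.35 to -0.02) at 4000 to 8000 UMIs and 0.30 (0.21 to 0.40) at 8000 to 16000 UMIs. The direction of the Pdgfrb difference therefore differed between these ranges. They were unevenly filled, with 82, 127 and 610 control cells and 516, 1677 and 348 case cells in the same order. With each cell given the same weight, the ratio was -0.03. In VSMC-like cells with at most 10% mitochondrial UMIs, Pdgfrb was 309 CPM in control and 390 CPM in case cells (log2 0.33). Within cluster 4, which held most control VSMC-like cells, Pdgfrb was 303 CPM in the control group and 414 CPM in the case group (log2 0.45, interval 0.33 to 0.57), and within cluster 1 it was 315 and 392 CPM (0.31, 0.10 to 0.53). Within cluster 3 it was 368 and 388 CPM, with an interval that included no change (0.08, -0.17 to 0.33). Cluster 6, made of shallow cells, had 973 CPM in 199 control cells and 972 CPM in 125 case cells. These were 16.6% of control and 4.69% of case VSMC-like cells, and the effect of this mix was not tested.

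In fibroblast-like cells the receptor differences also turned with depth. Pdgfrb was 224 CPM in control and 191 CPM in case cells of 4000 to 8000 UMIs (log2 -0.23, interval -0.45 to -0.02), and 186 and 150 CPM at 8000 to 16000 UMIs (-0.31, -0.51 to -0.11), whereas over all depths it was 0.11. Pdgfra was 102 and 84.4 CPM at 8000 to 16000 UMIs (-0.27, -0.54 to -0.01). Within cluster 2 the Pdgfrb ratio was 0.22 (0.09 to 0.34) and the Pdgfra ratio 0.27 (0.10 to 0.44). Pdgfd was higher in the case group in both ranges that could be compared, at 4.04 and 7.59 CPM for 4000 to 8000 UMIs (log2 0.91, interval -0.57 to 2.86) and 3.28 and 11.6 CPM for 8000 to 16000 UMIs (1.83, 0.81 to 2.90). Within clusters its interval included no change, at 2.05 and 3.1 CPM in cluster 2 (0.60, -0.64 to 1.82) and 5.06 and 14.1 CPM in cluster 5 (interval -0.45 to 4.57), the latter on 2 control UMIs.

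**Figure D5:**
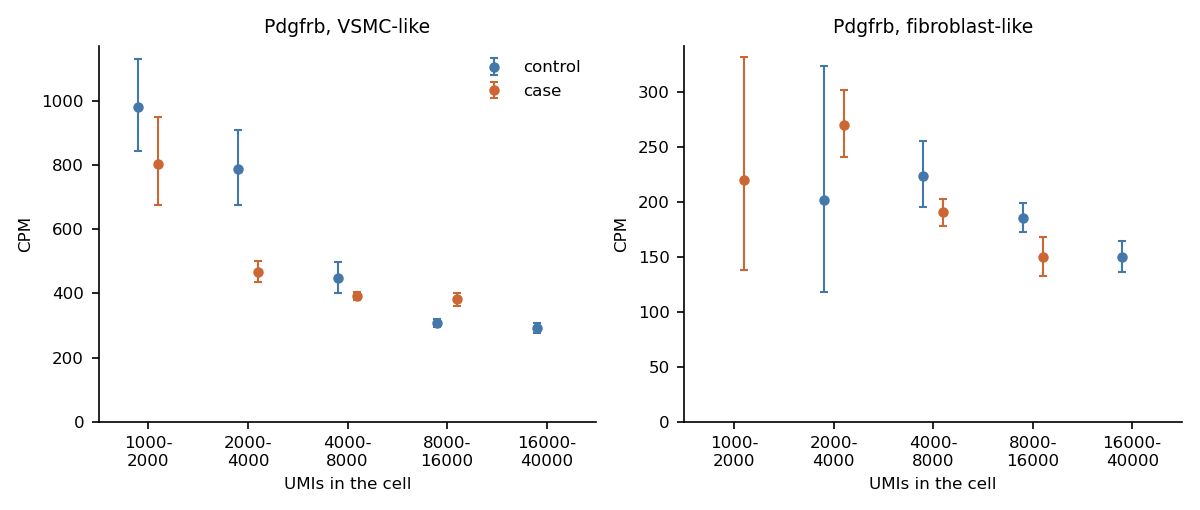
Pdgfrb level (CPM, y axis) by the number of UMIs in the cell (x axis) in VSMC-like (left) and fibroblast-like cells (right), control in blue and case in orange, with exact 95% Poisson intervals. Ranges with fewer than 20 cells are not drawn. The control VSMC-like level goes from 980 CPM in the shallowest to 291 CPM in the deepest cells.

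The other genes of PDGF signalling were taken from a list of proteases, co-receptors and PDGF-binding matrix proteins, signalling adaptors and effectors, negative regulators and transcription outputs. In VSMC-like cells 47 of them reached the mean of 10 CPM, of which 1 was higher and 4 lower in the case group by a fold of 1.5 or more, which is 2.13% and 8.51% of the list, beside 5.40% and 14.8% of all genes. The median log2 ratio of the list was -0.11, beside -0.13 for all genes. Elk1, a transcription factor activated by ERK, was higher, at 22.0 and 33.3 CPM (log2 0.60, interval 0.39 to 0.81). Sparc, a matrix protein that binds PDGF-B, was lower, at 5190 and 3130 CPM (-0.73, -0.75 to -0.72). Hras, at 57.1 and 37.7 CPM, and Akt1, at 76.9 and 50.8 CPM, encode effectors downstream of the receptors and were lower as well. With TMM scaling 3 genes of the list were higher and 2 lower, and the shares of all genes were not recomputed with it.

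In fibroblast-like cells 49 genes of the list were counted, with 3 higher and 2 lower in the case group. These are 6.12% and 4.08% of the list, beside 6.42% and 14.0% of all genes. The median log2 ratio was 0.04, beside -0.09 for all genes. Plau, which encodes urokinase, was 6.65 CPM in the control group and 23.3 CPM in the case group (log2 1.81, interval 1.37 to 2.27). Thbs1 (thrombospondin 1) was 12.6 and 39.8 CPM (1.66, 1.34 to 1.99). Src, a kinase that binds activated receptors, was 16.0 and 27.2 CPM (0.77, 0.45 to 1.09). Sparc was lower, at 10000 and 5470 CPM. With TMM scaling 4 genes were higher and 1 lower, again without recomputed shares of all genes.

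In endothelial-like cells 51 genes were counted, with 11 higher and 10 lower, or 21.6% and 19.6% of the list, beside 18.2% and 32.4% of all genes. The median was -0.09, beside -0.22 for all genes, and the interval left out no change for 14 of these 21. With TMM scaling, which adds 0.27 to every log2 ratio here, 18 were higher and 6 lower. The shares of all genes were not recomputed with TMM scaling, so the shares above are no background for these 2 counts. The higher ones with the largest differences were Plau, Spry1, Elk1 and Cblb, each on few control UMIs. Plau was at 4.71 CPM in the control group (2 UMIs) and 33.9 CPM in the case group (37 UMIs, log2 interval 0.89 to 5.95). Spry1, a feedback inhibitor of receptor signalling, was at 7.06 CPM (3 UMIs) and 29.3 CPM (0.38 to 4.40). Elk1 was at 9.42 CPM (4 UMIs) and 31.1 CPM (0.24 to 3.68). Cblb, a ubiquitin ligase, was at 9.42 CPM (4 UMIs) and 28.4 CPM (0.09 to 3.56). The lower ones included Ptprj, a receptor phosphatase, at 257 and 97.1 CPM (log2 -1.40), Fos, at 4840 and 2040 CPM, and Sparc, at 3670 and 1620 CPM.

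In macrophage-like cells 48 genes were counted, with 11 higher and 4 lower, or 22.9% and 8.33% of the list, beside 24.7% and 17.7% of all genes. The median was -0.02, beside 0.07 for all genes. Klf4, a transcription factor, was 304 and 712 CPM (log2 1.23, interval 0.91 to 1.56), and Nrp1, a co-receptor, was 6.08 CPM (2 UMIs) and 32.9 CPM (18 UMIs). Pik3ca, at 146 and 67.6 CPM, was lower. The platelet chemokine gene Pf4 stood at 3890 CPM in control and 1900 CPM in case macrophage-like cells. The other 4 platelet genes searched for (Ppbp, Gp9, Itga2b and Gp1bb) were at 0 in these cells.

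The genes most like each of the 6 in their pattern over the 8 points of class and library were named by Pearson's correlation of log2(CPM + 1). This compares how levels rise and fall between points, not how high they are. For Pdgfa they were Sh3bp4, Cdipt and Lrp5 (r of 0.988 to 0.983). For Pdgfb they were Anxa3, Lsr and Dync1i1 (0.972 to 0.966). Pdgfra was most like Clec11a, Ptgfr and Wnt5a (0.998 to 0.997), each of which had no UMI in endothelial-like and macrophage-like cells in either group. Pdgfrb was most like Hap1, Dexi and Daam1 (0.990 to 0.978). Pdgfd was most like Aatf, Hs2st1 and Heg1 (0.988 to 0.981), and Pdgfc was most like Cct8, Bmp2k and Rab1a (0.991 to 0.984). Cct8 stood at 83 to 158 CPM over these points, where Pdgfc was at 1.52 to 27.4 CPM. The Pdgfc points rested on as few as 1 and 3 UMIs in endothelial-like and 9 and 7 in macrophage-like cells. Points of 1 library share its depth and the values are a description.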

How the data were processed

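Single-cell RNA was measured on the 10x Genomics platform, with 1 library per group. The values deposited by the authors were whole UMI counts of both libraries in 1 matrix, not normalized, made with Cell Ranger 3.1.0, which aligns with STAR; the submitters' processing notes name the Rnor_6.0 build. The labels do not pair barcode suffixes with groups, and the map was taken from the stated barcode numbers (5656 case, 3321 control).

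Cells were kept with at most 20% mitochondrial UMIs, log10 UMIs and genes within 2 SD of their library's mean and 3 robust SD of their joint fit, and at least 1000 UMIs. A cell joined a class when at least 3 marker UMIs made up at least 0.4% (VSMC, fibroblast), 0.1% (endothelial, macrophage) or 0.2% (Schwann) of its UMIs, for that class alone. The markers were Myh11, Acta2, Tagln, Cnn1, Myl9 and Mylk for VSMCs; Dcn, Lum, Dpt, Serpinf1, Clec3b, Pi16 and Pcolce for fibroblasts; Cdh5, Cldn5, Sox17, Vwf, Egfl7, Tie1, Ecscr and Emcn for ECs; Cd68, C1qa, C1qb, C1qc, Csf1r, Tyrobp, Ncf4 and Aif1 for macrophages. Doublets stayed in; leaving out the 58 control and 194 case cells with the highest Scrublet scores (scanpy 1.11.5) was an alternative.

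Counts were summed per class and library and scaled to CPM. Ratios were checked on simulated Poisson counts without variation between cells or libraries, so this check could not test whether the intervals cover such variation. A count of 0 allows 3 counts. Subsets used Notch1 (200 CPM and 2 UMIs), Spp1, Postn (500 CPM), Pi16 (1000 CPM) and Gfpt2 (5000 CPM), the last 4 with 3 UMIs. A cell past more than 1 threshold was given to Gfpt2 before Postn and Postn before Pi16, or to Notch1 before Spp1. The genes named were the 6 members, up to 4 pathway genes per direction and class past a fold of 1.5 whose interval left out no change (some of these are not reported here), and the 3 genes of highest Pearson correlation to each member with at least 100 UMIs, among genes of at least 20 CPM in its highest class. edgeR 4.0.16 (R 4.3.3) gave TMM factors as an alternative. Members, lists and thresholds were chosen with earlier results of these data known. Promoters came from RefSeq; Pdgfrb had no entry.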

Additional observations from a re-analysis of the deposited data

Results flagged for a closer look

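The difference of Pdgfd between the groups had opposite directions in different classes. Its log2 ratio of case over control was 1.31 in fibroblast-like cells, -0.64 in VSMC-like cells and -0.80 in endothelial-like cells. The difference between classes was not tested, and the intervals of the last 2 ratios included no change. In endothelial-like cells the ratio was -0.20 without and -2.99 with Plvap or Emcn, the latter on 5 UMIs. With TMM scaling the last 2 ratios of the whole classes were -0.51 and -0.53, under a fold of 1.5.

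Cells that passed no class threshold were left out of the main comparisons. In these cells Pdgfa was 50.0 CPM in 70 control cells (18 UMIs, interval 29.7 to 79.1) and 115 CPM in 211 case cells (80 UMIs, 91.4 to 143), so that the case level lay above the control level.

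Barcodes under 1000 UMIs were left out of the main comparisons too. Some of them entered the alternatives with a minimum of 500 UMIs or with classes from Leiden clusters. Over all barcodes under 1000 UMIs, Pdgfrb was 364 CPM in 798 control barcodes (172 UMIs, interval 312 to 423) and 1170 CPM in 524 case barcodes (435 UMIs, 1060 to 1290). The case level of these shallow barcodes was also above the 402 CPM of case VSMC-like cells. The depths were unlike, with a median of 692 UMIs in these barcodes and 5394.5 in those cells. Case VSMC-like cells of 1000 to 2000 UMIs stood at 804 CPM.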

How the results depend on the processing

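No paired analysis was possible because each group had 1 library and no result came from a test. Each result was recomputed under the alternatives, and a value was taken as stable while it stayed within its counting interval, or within 1.5 times for a count of genes. Of 200 recomputed levels 188 were stable and 12 moved. Of 204 recomputed ratios 177 were stable and 18 moved, and 9 others took the opposite direction to a ratio whose interval left out no change. A further 11, moved or stable, had the opposite sign to a ratio whose interval included no change. With classes taken from Leiden clusters, Pdgfra in case was 3.53 CPM in VSMC-like and 93.2 CPM in fibroblast-like cells, Pdgfrb was 308 CPM in control VSMC-like and 61.9 CPM in case endothelial-like cells, and the VSMC-like log2 ratios were 1.80 for Pdgfra and 0.37 for Pdgfrb. With at most 10% mitochondrial UMIs, Pdgfrb in VSMC-like cells was 309 CPM in control and 390 CPM in case. With thresholds 1.5 times as high, Pdgfra in case VSMC-like cells was 2.72 CPM. With cells weighted equally, Pdgfa was 24.3 CPM in control fibroblast-like cells, Pdgfc 4.07 CPM and Pdgfrb 208 CPM in case fibroblast-like cells, and Pdgfrb 437 and 430 CPM in VSMC-like cells, where the log2 ratio of Pdgfrb turned to -0.03 and that of Pdgfra to -0.46. In VSMC-like cells TMM scaling gave -0.13 for Pdgfa and 0.42 for Pdgfrb, and median-of-ratios scaling gave -0.09 and 0.46. In endothelial-like cells the 2 scalings gave -0.20 and -0.15 for Pdgfa, 1.03 and 1.08 for Pdgfb and -0.53 and -0.49 for Pdgfd.

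The subsets of cells were chosen after the data had been seen. In cells of 2000 to 4000 UMIs the log2 ratios were 0.22 for Pdgfa and -0.75 for Pdgfrb in VSMC-like cells, both opposite to the whole class, and -1.27 for Pdgfa, 0.42 for Pdgfra and 0.42 for Pdgfrb in fibroblast-like cells. At 4000 to 8000 UMIs they were -0.51 for Pdgfa and -0.19 for Pdgfrb in VSMC-like cells and -0.44 for Pdgfa, -0.25 for Pdgfra and -0.23 for Pdgfrb in fibroblast-like cells, the Pdgfrb and Pdgfra ratios being opposite to the class. At 8000 to 16000 UMIs the fibroblast-like ratios were 1.74 for Pdgfc, -0.27 for Pdgfra and -0.31 for Pdgfrb. Within cluster 4 the VSMC-like ratios were -0.11 for Pdgfa, -1.31 for Pdgfc and 0.45 for Pdgfrb, and within cluster 3 they were 0.37 for Pdgfa, opposite to the class, and 0.08 for Pdgfrb. In endothelial-like cells with Plvap or Emcn the Pdgfa ratio was -1.44. The cause of these changes was not tested.

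Without thinning, the share of cells with a UMI, case minus control, was -17.9 percentage points for Pdgfa in endothelial-like, -15.5 for Pdgfra in fibroblast-like and -8.20 for Pdgfrb in VSMC-like cells. For the pathway list, a fold of 2 left 0 genes higher and 0 lower in VSMC-like, 0 lower in fibroblast-like, 7 higher and 5 lower in endothelial-like and 5 higher and 1 lower in macrophage-like cells. A mean of at least 50 CPM left 0 higher and 2 lower in VSMC-like, 0 higher in fibroblast-like, 1 higher in endothelial-like and 3 higher and 2 lower in macrophage-like cells. With no minimum level, 2 were higher in VSMC-like cells. TMM scaling gave 3 higher and 2 lower in VSMC-like, 1 lower in fibroblast-like and 18 higher and 6 lower in endothelial-like cells. The shares of all genes were not recomputed under these alternatives, so these counts have no background beside them. Differences in Pdgfc, and in the endothelial-like and macrophage-like classes, are limited by the few UMIs counted.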

Other observations

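Schwann-like cells, the glia of nerves in the outer vessel wall, were too few for a comparison, at 16 control and 41 case cells. They held Pdgfa at 133 CPM in the control group (11 UMIs, interval 66.5 to 239) and 306 CPM in the case group (35 UMIs, 213 to 425). Pdgfrb in the same cells was 48.5 CPM (4 UMIs) and 122 CPM (14 UMIs), and no Pdgfra UMI was counted in either group.

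Cluster 17 was made of 21 case cells and no control cell. Its Pdgfa level was 256 CPM (25 UMIs, interval 166 to 379) and its Pdgfrb level 605 CPM (59 UMIs, 461 to 781), against 78.5 and 402 CPM in case VSMC-like cells. A cluster of 1 library cannot be told apart from that library.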
